A study of Mus musculus with 16 samples.

Results

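The comparison set celiac ganglia labelled het for Runx1t1 against ganglia with wild-type Runx1t1, all from mice without the MYCN transgene. It compared 7 of the 16 libraries of the study, chosen by their labels: 3 labelled het (replicates 1, 3 and 4) and 4 wild-type (replicates 1 to 4). It asks what the loss of 1 Runx1t1 allele does to the RNA of a normal sympathetic ganglion, and how large a change in each gene these libraries leave possible. The study crossed mice with an inactivated Runx1t1 allele to a neuroblastoma-prone line, in which the tyrosine hydroxylase promoter drives human MYCN in the sympathetic lineage, and sequenced RNA of ganglia and tumors.

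The other 9 libraries, all labelled MYCN homozygote, entered the fit of 16 libraries, where they shared the filter, the normalization and the estimate of spread. They were celiac ganglia labelled Runx1t1 Heterozygote (2) or Runx1t1 wild-type (3), and tumors with wild-type Runx1t1 (4).

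Both groups compared were celiac ganglia (spelled Coelic ganglia in the labels) from 2-week-old mice, labelled MYCN wild-type, which here means that they carry no transgene. The group labelled Runx1t1 Heterozygote had 1 wild-type allele and 1 allele inactivated by an insertion, and the group labelled Runx1t1 wild-type had 2 wild-type alleles. The knockout and the transgenic line came from different strain backgrounds. The sources used here do not say which exons the insertion affects. Each library is given as a separate sample, and where nothing says that it came from a separate mouse, p-values measure only the spread between these samples. These normal ganglia also carry the label neuroblastoma as their cell type, as all samples of the study do.

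Runx1t1 (also ETO or MTG8) is a corepressor. It binds no DNA itself but is brought to genes by transcription factors and in turn brings in complexes that hold SIN3 proteins, histone deacetylases and the histone demethylase LSD1. Its family has other members, Cbfa2t2 and Cbfa2t3, and it is best known from a fusion with RUNX1 in leukemia. Celiac ganglia hold noradrenergic sympathetic neurons that innervate the gut and other abdominal organs, with satellite glia and Schwann cells around them.

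The ganglia carried the RNA of that tissue. Th, which encodes the rate-limiting enzyme of catecholamine synthesis, lay between 552 and 1240 CPM (counts scaled to library size after TMM normalization) in all 7 libraries, and the peripheral neuron filament gene Prph lay between 1086 and 2825 CPM. Depth ran from 12169414 to 36337179 counts in the ganglia labelled het and from 10692291 to 33257618 counts in the wild-type ganglia. Wild-type replicate 2 stood apart from the other 6 libraries. Its mean distance to them (Euclidean, over log2(CPM + 1) of 14552 genes) was 141, against 67.3 to 78.4 for each of the others. Lymphocyte markers summed to 1370 TPM (transcripts scaled for length and depth) in it and to 5.27 to 15.5 TPM elsewhere. Myeloid markers summed to 2278 TPM in it and to 63.6 to 238 TPM elsewhere. In the same library catecholamine genes summed to 4128 TPM, below the 7700 to 12730 TPM of the other 6. It and labelled-het replicate 4 were the libraries with Y-linked RNA, Ddx3y being at 66.9 and 56.4 CPM in them and at most 0.32 CPM in the rest. Wild-type replicate 2 was thus the only wild-type library with Y-linked RNA. Leaving it out also leaves the wild-type group without such RNA, so that what sets this library apart cannot be separated from sex. Most list medians and many single genes below are given with and without wild-type replicate 2. In whole ganglia, fewer cells of a type and less RNA per cell cannot be told apart.

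**Figure D1:**
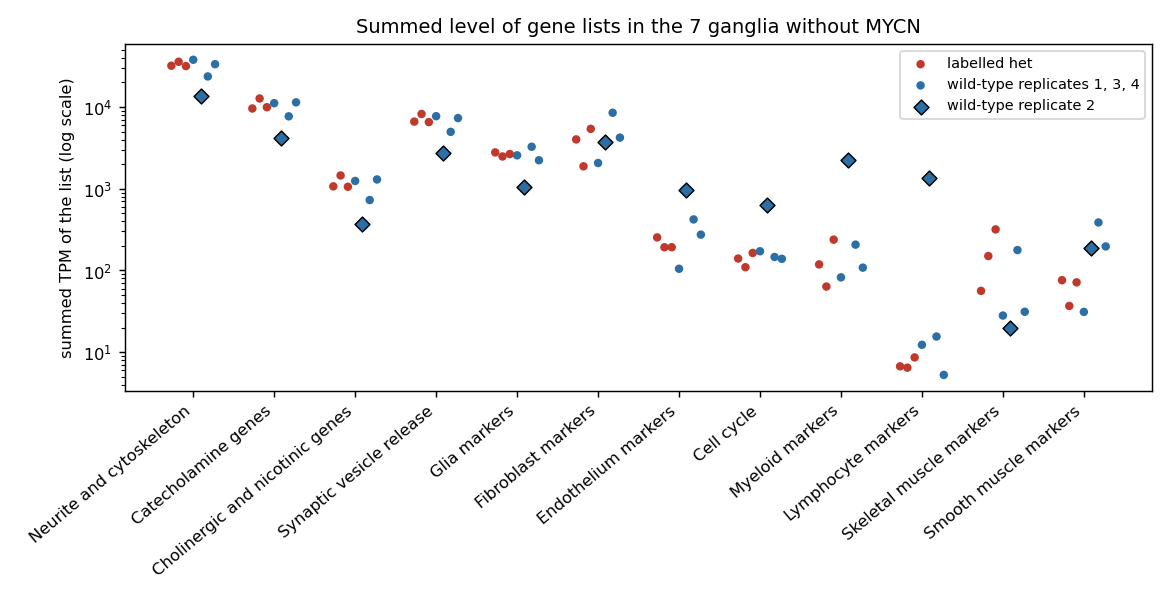
Summed TPM of 12 gene lists (log axis) in each of the 7 libraries without MYCN, with 1 symbol per library. Wild-type replicate 2 (diamond) is the highest library for lymphocyte markers (1370 TPM) and myeloid markers (2278 TPM) and the lowest for neurite genes (13631 TPM) and catecholamine genes (4128 TPM).

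Runx1t1 RNA did not separate the groups in the direction of the labels. The gene (chr4:13743436-13893649, plus strand, GRCm38) stood at 13.3, 13.1 and 18.2 CPM in labelled-het replicates 1, 3 and 4, from 166, 449 and 546 counts. It stood at 8.47, 10.8, 13.1 and 12.2 CPM in wild-type replicates 1 to 4, from 106, 124, 372 and 412 counts. The labelled-het libraries held the highest values, and the groups overlapped only where labelled-het replicate 3 fell just under wild-type replicate 3. The means were 14.9 ± 2.9 CPM (SD, n = 3) and 11.1 ± 2.0 CPM (SD, n = 4). The log2 difference, labelled het minus wild-type here and throughout, was 0.41, with a 95% interval of −0.71 to 1.54 and an adjusted p of 0.993 (edgeR quasi-likelihood test, Benjamini-Hochberg adjustment over all genes). In a fit of the 7 libraries alone the interval was −0.12 to 0.95. An exact two-sided permutation test on log2(CPM + 1) gave a difference of 0.39 with p = 0.0857, where the smallest p that the 35 splits allow is 0.0286. On the TPM deposited by the authors, the exact permutation p was 0.2.

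A loss of 50% of the RNA would be a log2 difference of −1. That value lay below the interval in the fit of all 16 libraries and in the fit of the 7. It lay inside the interval from limma voom, which ran from −1.29 to 2.03, and inside the one found without labelled-het replicate 4, which ran from −1.08 to 1.56. The RNA therefore did not check the labels, and the wording "labelled het" is kept. The sources do not say whether reads of the inserted allele count for the gene. Runx1t1 was a low gene in these ganglia at 2.78 to 6.28 TPM.

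**Figure D2:**
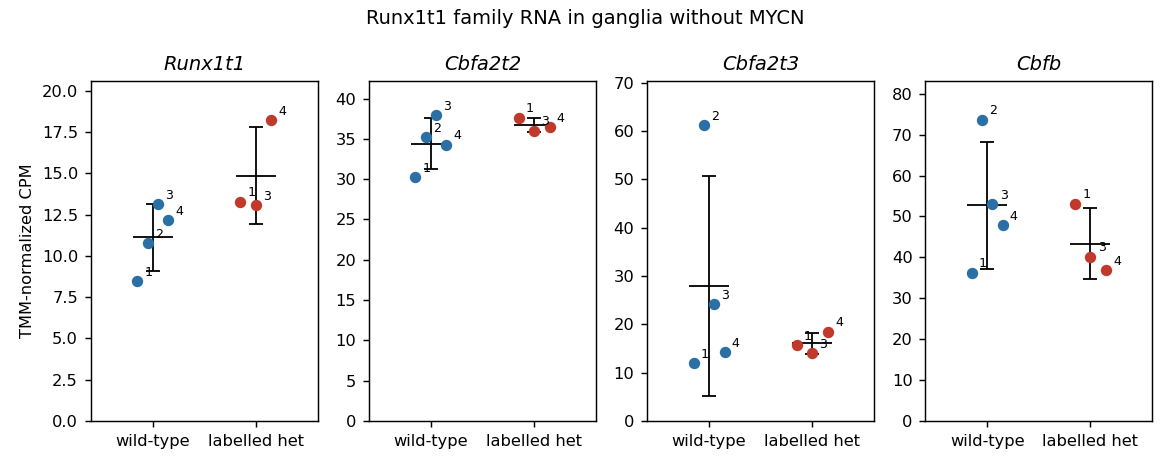
Normalized CPM of Runx1t1, its relative Cbfa2t2, its relative Cbfa2t3 and the RUNX partner Cbfb, with a point for each library (numbers are replicates), a bar for the mean and whiskers for 1 SD. Runx1t1 is at 13.1 to 18.2 CPM in the ganglia labelled het and at 8.47 to 13.1 CPM in the wild-type ones, and wild-type replicate 2 is the highest point for Cbfa2t3 and Cbfb.

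The other ETO genes were measured with unequal precision. Cbfa2t2 stood at 37.6, 36.0 and 36.4 CPM in the ganglia labelled het and at 30.2, 35.2, 37.9 and 34.3 CPM in the wild-type ganglia. Its log2 difference of 0.09 had an interval of −0.26 to 0.45, which is 0.833-fold to 1.36-fold. Cbfa2t3 stood at 15.6, 14.0 and 18.4 CPM in the ganglia labelled het and at 11.9, 61.1, 24.2 and 14.2 CPM in the wild-type ganglia. Its log2 difference was −0.79 (interval −2.13 to 0.54) with wild-type replicate 2 and −0.07 (interval −0.72 to 0.57) in the 6 libraries without it.

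The RUNX factors, which bind DNA together with Cbfb, also moved with that library. Runx3 was at 35.6 CPM in wild-type replicate 2 and at 0.40 to 1.76 CPM in the other 6 libraries. Runx1 was at 41.5 CPM in it and at 3.76 to 9.95 CPM in the others. The log2 difference of Runx1 was −0.89 with it and 0.50 without it, and that of Runx2 was −2.03 with it and 0.20 without it. Runx3 was below 0 in both cases, at −4.0 (interval −6.86 to −1.13) with it and −0.81 (interval −2.30 to 0.68) without it. None of the 7 genes of the ETO and RUNX list passed the threshold in either case. Cbfb had a log2 difference of −0.28 (interval −0.80 to 0.23), and of −0.08 (interval −0.54 to 0.37) in the 6 libraries without wild-type replicate 2.

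No gene differed between the genotypes past an adjusted p of 0.05 by edgeR's quasi-likelihood test, out of 16665 tested (0% called). The smallest adjusted p was 0.993. At an unadjusted p under 0.05 there were 687 genes (4.12% of those tested), 60 higher (0.36%) and 627 lower (3.76%) in the ganglia labelled het. That number, with wild-type replicate 2 left out, was 136 of 16533 (0.823%), with 61 higher (0.369%) and 75 lower (0.454%), and again 0 were called. The number at an unadjusted p under 0.05 was 1550 without wild-type replicate 1 and 1049 without wild-type replicate 4, with 0 called in both. Where nothing differs, a share of 0.05 of genes is expected at such a p, above both 4.12% and 0.823%. The spread fitted here may thus be wide for these groups, and the intervals with it, which was not tested. Of the 61 higher genes without wild-type replicate 2, 4 were sex-linked.

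In a fit of the 7 libraries alone, edgeR called 0 of 15347 genes and 244 (1.59%) had an unadjusted p under 0.05. Limma voom called 0 genes, and 297 had an unadjusted p under 0.05. DESeq2 on all 16 libraries called 5 genes, Amd1, Art2a-ps, Treml4, Gvin1 and Stab2. Amd1, an enzyme of polyamine synthesis, had 499 counts in labelled-het replicate 1 and 0 in each of the other 6 libraries. Art2a-ps and Treml4 had 65 and 78 counts in wild-type replicate 2 and 0 in each of the others. Stab2, an endothelial scavenger receptor, and Gvin1, an interferon-inducible GTPase, had 1822 and 2584 counts in wild-type replicate 2. They had at most 92 and 577 counts elsewhere. In each of the 5 genes 1 library stood far above the others, and DESeq2 on the 7 libraries alone called 0.

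Distances over all genes did not separate the Runx1t1 genotypes. Mean distances were 78.1 between the genotypes, 53.3 within the ganglia labelled het and 104 within the wild-type ganglia. The distance between genotypes minus that within them was −9.23, with a one-sided exact permutation p of 0.857. With wild-type replicate 2 left out, the distances were 56.4 between, 53.3 within labelled het and 69.1 within wild-type, and the exact permutation p was 0.9. The difference became 5.33 without wild-type replicate 1 and 0.20 without wild-type replicate 4, at exact permutation p of 0.3 and 0.4. With 1 wild-type library left out, only 20 splits remain and the smallest possible permutation p is 0.05. Those tests could therefore not pass the threshold and decide nothing.

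How small a change the data bound depended on the level of the gene. A gene is called bounded within 2-fold here when its whole 95% interval lies between −1 and 1 on the log2 scale. The intervals hold for each gene on its own and were not widened for the number of genes. In the fit of 16 libraries 8486 of 16665 genes (50.9%) were bounded within 2-fold and 3911 (23.5%) within 1.5-fold. The median interval of that fit reached 0.72 to either side of its estimate on the log2 scale, or 1.65-fold. For 35 genes in it, with a fitted difference near 0, no interval could be computed. The 15 libraries without wild-type replicate 2 gave 9375 of 16533 genes (56.7%) within 2-fold, and a median reach of 0.69. Within 1.5-fold there were 3894 of 15347 genes (25.4%) in the fit of 7 and 6994 of 15162 (46.1%) in the 6 libraries without wild-type replicate 2.

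Low genes were hardly bounded. Below a mean of 1 TPM, 3 of 2113 genes were bounded within 2-fold, and between 1 and 10 TPM 989 of 4485 genes (22.1%) were. Between 10 and 100 TPM the share was 74.1% of 8261 genes, and from 100 TPM upward it was 76.1% of 1806 genes. Runx1t1 belongs to the second of these bands. In the 6 libraries without wild-type replicate 2 the shares were 36.3% from 1 to 10 TPM, 89.2% from 10 to 100 TPM and 94.7% from 100 TPM upward. The median interval in that fit reached 0.49 to either side, or 1.40-fold, and 10618 of 15162 genes (70%) were bounded within 2-fold. From 100 TPM upward it reached 0.37, or 1.29-fold.

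Taken in 1 direction only, a fall to 50% or less lay outside the interval for 10020 of 16665 genes, and a doubling or more lay outside it for 11799. Intervals that lay wholly beyond 2-fold were found for 121 genes in the fit of 16 libraries, for 6 in the fit of 7, for 19 in the 15 libraries without wild-type replicate 2 and for 0 in the 6 without it.

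**Figure D3:**
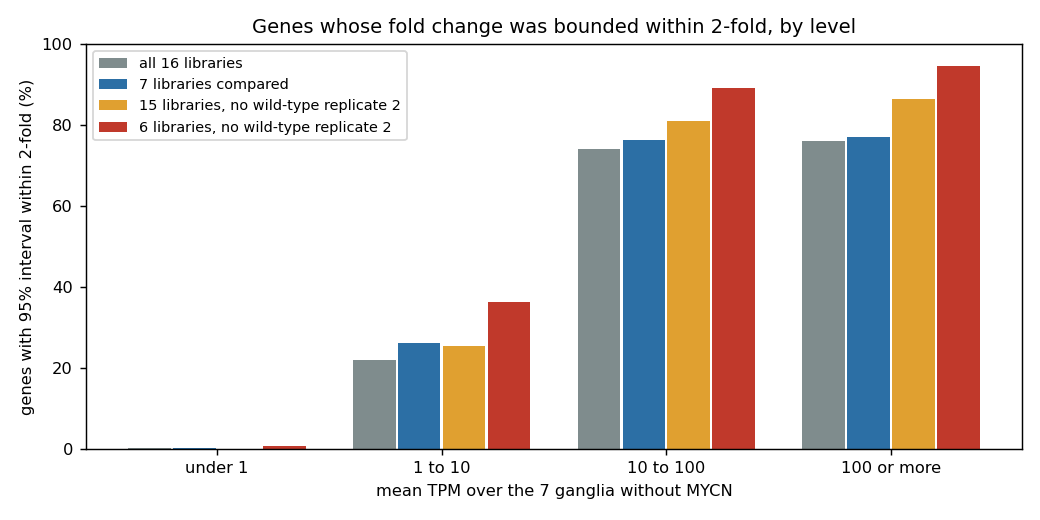
Percent of genes whose 95% interval lies within 2-fold, in bands of mean TPM over the 7 ganglia without MYCN, with a bar for each of 4 fits. The share climbs with the level of the gene, from 22.1% at 1 to 10 TPM to 76.1% at 100 TPM or more in the fit of 16 libraries, and reaches 94.7% in the 6 libraries without wild-type replicate 2.

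The corepressor complexes that Runx1t1 works through held no called gene. Of 20 genes, 0 passed the threshold and 0 had an unadjusted p under 0.05. In the fit of 16 libraries 17 were bounded within 2-fold, beside 50.9% of all genes. The 20 genes summed to 1114 to 1203 TPM per library. Among all genes the bounded share was 74.1% between 10 and 100 TPM and 76.1% from 100 TPM upward. The median log2 difference of the 20 was −0.01, that of all genes being −0.03. Sin3b, a scaffold of the SIN3 complex, stood at 99.9, 120 and 114 CPM in the ganglia labelled het and at 110, 104, 106 and 102 CPM in the wild-type ganglia. Its log2 difference of 0.08 had an interval of −0.14 to 0.31.

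Kdm1a, which encodes LSD1, had a log2 difference of −0.01 (interval −0.56 to 0.54). Hdac3, a histone deacetylase, had a difference that rounded to 0, with an interval of −0.30 to 0.29. Hdac1 was the least certain of the named corepressor genes. It stood at 29.2, 26.3 and 32.5 CPM in the ganglia labelled het and at 27.7, 77.9, 41.0 and 29.1 CPM in the wild-type ganglia. Its log2 difference was −0.58 (interval −1.21 to 0.05) with wild-type replicate 2 and −0.16 (interval −0.59 to 0.27) in the 6 libraries without it, where all 20 genes were bounded within 2-fold.

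Transcription factors that specify sympathetic neurons overlapped between the genotypes, within wide intervals. Of 17 genes, 0 passed the threshold, 0 had an unadjusted p under 0.05, and the median log2 difference was 0.25. The median was 0.10 without wild-type replicate 2. Hand2, a basic helix-loop-helix factor of noradrenergic neurons, stood at 843, 891 and 774 CPM in the ganglia labelled het. In wild-type replicates 1 to 4 it stood at 992, 368, 581 and 765 CPM. The wild-type values lay on both sides of the labelled-het ones, with replicate 2 the lowest.

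The interval for Hand2 was −0.28 to 0.89 in the fit of 16 libraries and −0.38 to 0.58 in the 6 without wild-type replicate 2. Gata3 was the best bounded of the list at 0.15 (interval −0.26 to 0.57). Of the 17 genes, 5 were bounded within 2-fold in the fit of 16 libraries and 10 in the fit of 7. In the 6 libraries 14 of 16 were. Meis2, at a mean level of 1.84 TPM, was not bounded in any of the 3 fits.

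Catecholamine genes were not called either. Of 16 genes, 0 passed the threshold and 0 had an unadjusted p under 0.05, with a median log2 difference of 0.20 (0.02 without wild-type replicate 2). The groups did not overlap for 1 of the 16, which was lower in the ganglia labelled het, beside 1.45% of all genes. The number bounded within 2-fold was 3 of 16 in the fit of 16 libraries, 8 of 15 in the fit of 7 and 14 of 15 in the 6. Th stood at 1054, 1220 and 960.1 CPM in the ganglia labelled het and at 1240, 552, 859 and 1097 CPM in the wild-type ganglia. Its log2 difference of 0.20 had an interval of −0.70 to 1.11, and in the 6 libraries without wild-type replicate 2 it was 0.02 (interval −0.41 to 0.44). Dbh, which encodes the enzyme that turns dopamine into noradrenaline, stood at 2552, 3474 and 2485 CPM and at 3038, 1115, 1911 and 2956 CPM in the same order. Its log2 difference was 0.33 (interval −0.76 to 1.42), and 0.11 (interval −0.45 to 0.66) in the 6 libraries.

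Slc6a2, the noradrenaline transporter, had a wide interval in the fit of 16 libraries. The log2 difference was 0.57, with an interval of −1.04 to 2.18, and in the 6 libraries it was 0.32 (interval −0.27 to 0.90). Chga, which encodes the granule protein chromogranin A, gave 0.53 (interval −0.37 to 1.44) and 0.26 (interval −0.37 to 0.90).

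Receptors for acetylcholine and for growth factors were not bounded as well. All 11 cholinergic and nicotinic genes had an estimate above 0, with a median of 0.46, and 0 were called or had an unadjusted p under 0.05. The estimate was above 0 for 8 of 11 without wild-type replicate 2, with a median of 0.21. The number bounded within 2-fold was 0 of 11 in the fit of 16 libraries, 1 of 11 in the fit of 7 and in the 15 without that library, and 7 of 11 in the 6. Chrna3, a subunit of the nicotinic receptor of autonomic ganglia, stood at 433, 590 and 449 CPM in the ganglia labelled het. In wild-type replicates 1 to 4 it stood at 522, 151, 278 and 476 CPM. The interval was −0.50 to 1.42, and −0.38 to 0.79 in the 6 libraries without wild-type replicate 2.

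Ngfr, the low-affinity neurotrophin receptor, had a log2 difference of 0.50 (interval −0.48 to 1.48), and of 0.23 (interval −0.35 to 0.81) in the 6 libraries without wild-type replicate 2. Ret, the receptor tyrosine kinase for the GDNF family, gave 0.45 (interval −0.80 to 1.70) and 0.18 (interval −0.39 to 0.75). In the neurotrophin and GDNF list 0 of 14 genes were called, and 1 was bounded within 2-fold in the fit of 16 libraries. In the fit of the 7 libraries 4 of 12 were, in the 15 without wild-type replicate 2 it was 2 of 14, and in the 6 it was 7 of 12. Npy, the most abundant neuropeptide gene of the ganglia, stood at 585, 718 and 448 CPM and at 721, 285, 416 and 728 CPM. This is a log2 difference of 0.12 (interval −0.96 to 1.19), which turned to −0.09 (interval −0.70 to 0.52) in the 6 libraries.

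Genes of neurites and of transmitter release had estimates close to each other and groups that overlapped. All 20 neurite and cytoskeleton genes had estimates between 0.17 and 0.43, 0 were called and 0 had an unadjusted p under 0.05. Their median log2 difference was 0.30, and 0.10 without wild-type replicate 2. Tuba1a, an alpha tubulin of growing neurons, stood at 4480, 4426 and 4146 CPM in the ganglia labelled het and at 5269, 2180, 3270 and 4374 CPM in the wild-type ganglia. The lowest of these was wild-type replicate 2.

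The interval of Tuba1a was −0.39 to 0.80 in the fit of 16 libraries and −0.48 to 0.51 in the 6 libraries. Dpysl2 (CRMP2), which binds tubulin in growing axons, had a log2 difference of 0.36 (interval −0.19 to 0.92) and one of 0.18 (interval −0.31 to 0.68) in the 6 libraries. Of the 20 neurite genes 10 were bounded within 2-fold in the fit of 16 libraries and 7 in the fit of 7. All 20 were in the 6 without wild-type replicate 2. The 16 genes of synaptic vesicle release had a median of 0.33, and 0.12 without wild-type replicate 2. Of these, 11 were bounded within 2-fold in the fit of 16 libraries, 7 in the fit of 7 and all 16 in the 6. Syt1, the calcium sensor of vesicle release, gave 0.43 (interval −0.38 to 1.24) and 0.20 (interval −0.41 to 0.81). Cplx1, which clamps the release machinery, gave 0.37 (interval −0.23 to 0.97) and 0.18 (interval −0.13 to 0.50).

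**Figure D4:**
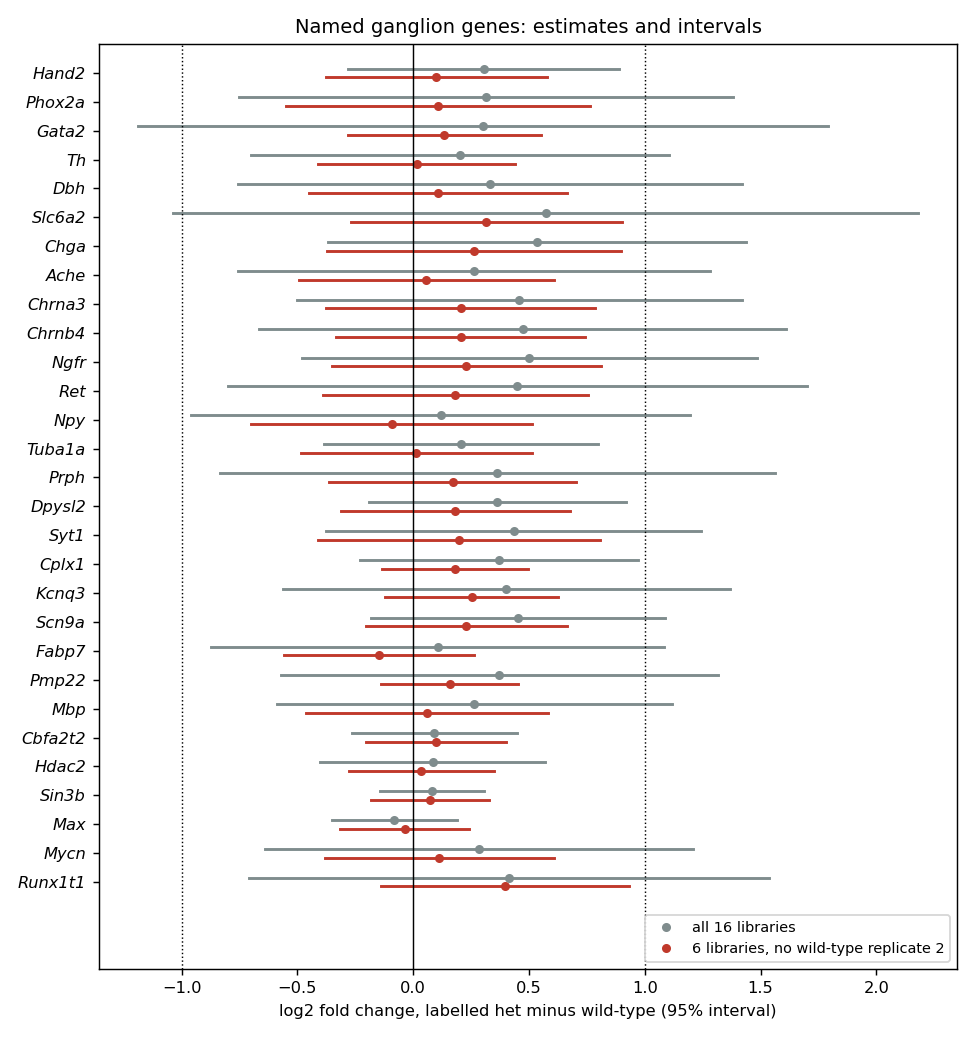
Log2 differences, labelled het minus wild-type, with 95% intervals for 29 named genes in the fit of all 16 libraries (grey) and of the 6 libraries without wild-type replicate 2 (red); dotted lines mark 2-fold in either direction. Every interval shown includes 0, and in the 6 libraries every interval shown lies within 2-fold, while Slc6a2 in the fit of 16 reaches from −1.04 to 2.18.

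Ion channel genes held the member with the smallest unadjusted p among the neuronal lists. Kcnj6, a potassium channel opened by G proteins, had 0, 26 and 3 counts in labelled-het replicates 1, 3 and 4. It had 0 counts in all 4 wild-type libraries. Most of its counts thus came from 1 library, and its unadjusted p was 0.00479 (edgeR quasi-likelihood test). That p is from the fit of 16 libraries. In the fit of the 7 libraries Kcnj6 did not pass the filter, which left 21 of the 22 genes. The call was not made (adjusted p of 0.993, edgeR quasi-likelihood test). Cacna1c, an L-type calcium channel subunit, lay between 47.8 and 58.7 CPM in the ganglia labelled het. In the wild-type ganglia it lay between 28.5 and 43.8 CPM, without overlap. The estimate was 0.53 (interval −0.01 to 1.06). Cacna1d and Kcnc1 also did not overlap, with differences of 0.20 and 0.38, which makes 3 of 22 ion channel genes beside 1.45% of all genes in that direction. Of the 22 genes 0 were called and the median was 0.28 (0.12 without wild-type replicate 2).

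Glia showed no called change. Of 18 genes 0 were called, 14 had estimates above 0 with wild-type replicate 2 and 7 without it, and the median moved from 0.11 to −0.07. Fabp7, a lipid-binding protein of satellite glia, stood at 188, 129 and 196 CPM in the ganglia labelled het and at 191, 67.9, 203 and 174 CPM in the wild-type ganglia. The estimate was 0.11 (interval −0.87 to 1.08), and −0.15 (interval −0.56 to 0.26) in the 6 libraries. Pmp22, a protein of compact myelin, gave 0.37 (interval −0.57 to 1.32) and 0.16 (interval −0.14 to 0.45).

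Cell cycle genes had estimates below 0 for 19 of 20 members, which moved with wild-type replicate 2. None was called, 3 (Ccna2, Ccnb1 and Aurkb) were lower at an unadjusted p under 0.05, beside 3.76% of all genes, and the median log2 difference was −1.49, but −0.09 without that library. Their summed level was 638 TPM in it and 110 to 172 TPM in the other 6 libraries. Mki67, a marker of dividing cells, stood at 28.5, 34.4 and 47.3 CPM in the ganglia labelled het and at 38.8, 368, 64.5 and 40.9 CPM in the wild-type ganglia. Once wild-type replicate 2 was left out, 0 of the 20 were lower at an unadjusted p under 0.05 in the fit of 15 libraries, beside 0.454% of all genes, and 1, Ccna2, in the fit of 6, beside 0.534%. The groups did not overlap for 2 of the 20, Ccna2 and Ccnb1, both lower, beside 1.45% of all genes. Ccnb1 (cyclin B1) stood at 0.90 to 1.34 CPM in the ganglia labelled het and at 1.89 to 12.6 CPM in the wild-type ganglia. Ccna2 (cyclin A2) was below every wild-type library in all 3 libraries labelled het, at 3.76, 3.37 and 2.81 CPM against 5.84, 30.1, 7.05 and 5.11 CPM. Its log2 difference was −1.85 with wild-type replicate 2 and −0.86 (interval −1.48 to −0.25) in the 6 libraries, with adjusted p of 0.993 and 1.00 (edgeR quasi-likelihood test).

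The mouse Mycn gene, which is expressed in these ganglia without any transgene, stood at 47.0, 62.5 and 60.5 CPM in the ganglia labelled het. In wild-type replicates 1 to 4 it stood at 67.7, 28.4, 39.3 and 50.7 CPM, on both sides of the others. The log2 difference was 0.28 (interval −0.64 to 1.21), and 0.11 (interval −0.38 to 0.61) in the 6 libraries. Max, the partner with which MYC proteins bind DNA, was much better bounded at −0.08 (interval −0.35 to 0.19). Of the 12 MYC network genes 0 were called, and their median was −0.29 with wild-type replicate 2 and −0.01 without it. Of 7 genes that the study names in human neuroblastoma cells, Runx1t1 included, 0 were called and 5 were bounded within 2-fold.

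Early response genes had a median log2 difference of −0.54, and of −0.30 without wild-type replicate 2. Of 13 genes 0 were called, and 12 had estimates below 0, as did all 13 without that library. Atf3 was the 1 gene lower at an unadjusted p under 0.05 with it, beside 3.76% of all genes, and without it in the fit of 15 libraries, beside 0.454%. Atf3, a stress-induced factor, stood at 2.08, 0.611 and 2.17 CPM in the ganglia labelled het and at 0.959, 2.77, 8.89 and 4.76 CPM in the wild-type ganglia. Its log2 difference of −1.44 had an interval of −2.73 to −0.14 in the fit of 16 libraries and −3.24 to 0.36 in the fit of 7. Jun gave 0.06 (interval −0.26 to 0.38).

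**Figure D5:**
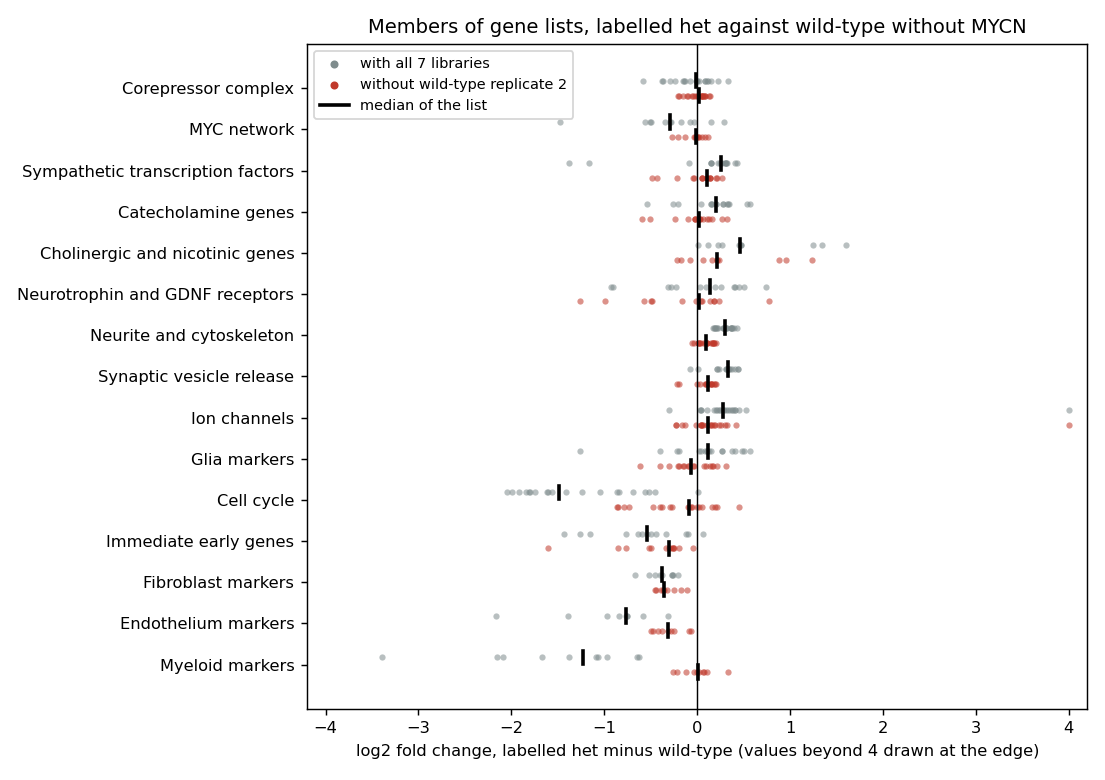
Log2 differences, labelled het minus wild-type, of the tested members of 15 gene lists, with all 7 libraries (grey) and without wild-type replicate 2 (red), and the list median as a black bar. The median of cell cycle genes moves from −1.49 to −0.09 and that of myeloid markers from −1.23 to 0.01 when wild-type replicate 2 is left out, while corepressor genes stay at −0.01 and 0.02.

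Markers of cells other than neurons and glia varied between single libraries. All 9 tested lymphocyte markers had an unadjusted p under 0.05, beside 3.76% of all genes lower in the ganglia labelled het, and their median was −6.00. Without wild-type replicate 2 the median was −0.88 and 0 of 8 had such a p. Myeloid markers had a median of −1.23 with that library and 0.01 without it, and endothelium markers −0.76 and −0.31. All 9 endothelium markers had estimates below 0 in both cases, and 1, Plvap, was lower at an unadjusted p under 0.05 with that library and 0 were without it in the fit of 15 libraries. All 9 fibroblast markers also had estimates below 0 in both cases, with medians of −0.38 and −0.35, and 0 had such a p in either. With each library left out in turn, Col1a1 ran from −0.77 to 0.094, Col1a2 from −0.57 to 0.17 and Col3a1 from −0.59 to 0.29. The sign of these fibroblast genes thus depended on which library was left out. Fibroblast markers were highest in wild-type replicate 3, at 8516 TPM against 1881 to 5413 TPM in the other 6 libraries. Erythroid markers were highest in labelled-het replicate 4 (9890 TPM) and wild-type replicate 3 (9044 TPM).

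Smooth muscle markers had a median log2 difference of −2.06 with wild-type replicate 2 and −2.24 without it. All 6 estimates were below 0 with it, and 1 of 6, Des, was above 0 without it. Myh11, a smooth muscle myosin, stood at 45.3, 22.8 and 31.4 CPM in the ganglia labelled het and at 15.4, 97.9, 371 and 154 CPM in the wild-type ganglia. Wild-type replicate 1 was thus the lowest library and replicate 3 the highest. The log2 difference of Myh11 was −2.27 (interval −4.66 to 0.12). Of the 6 genes 0 were called. At an unadjusted p under 0.05, 0 of 6 were lower in the fit of 16 libraries, beside 3.76% of all genes, and 2, Myh11 and Actg2, in the fit of 7, beside 1.19%. Without wild-type replicate 2 there were 2, Acta2 and Cnn1, in the fit of 15 libraries, beside 0.454% of all genes, and 4, those genes with Myh11 and Actg2, in the fit of 6, beside 0.534%. Actg2 (smooth muscle gamma actin) was the 1 gene of the 6 whose groups did not overlap, beside 1.45% of all genes, at 0.72 to 1.07 CPM in the ganglia labelled het and 1.36 to 14.9 CPM in the wild-type ganglia. Skeletal muscle markers had a median of 1.19, and of 0.94 without wild-type replicate 2, with all 7 estimates above 0 in both. None was called. At an unadjusted p under 0.05, 2 of 7, Acta1 and Myh1, were higher in the fit of 16 libraries, beside 0.36% of all genes, and 1, Myh1, was without wild-type replicate 2, beside 0.369%. They summed to 318 TPM in labelled-het replicate 4, to 178 TPM in wild-type replicate 3 and to 19.8 to 150 TPM in the other 5. The part of these surrounding tissues in the genotype values was not tested.

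Genes whose groups did not overlap numbered 483 of 16665 (2.9%), 242 higher (1.45%) and 241 lower (1.45%) in the ganglia labelled het. Of the 35 splits of these libraries, 1 sets the groups apart in a given direction. A share of 0.0286 in each direction is thus expected where nothing differs, above the 1.45% found. Of the genes without overlap, those with the smallest p are described here, and none was called. Pcdha10 and Pcdhb13, from the clustered protocadherins that neurons use for self-recognition, led the higher ones. Pcdha10 stood at 11.5, 19.9 and 25.5 CPM in the ganglia labelled het and at 9.19, 5.72, 6.98 and 10.1 CPM in the wild-type ganglia, with a log2 difference of 1.24 (interval 0.48 to 2.01). Pcdhb13 stood at 3.28, 4.68 and 3.17 CPM and at 1.84, 1.47, 1.66 and 1.54 CPM, with a log2 difference of 1.19 (interval 0.49 to 1.89). The adjusted p was 0.993 for both (edgeR quasi-likelihood test). Protocadherins of a cluster share exons or are near copies, so that the authors' counting could split reads between them.

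The whole set of clustered protocadherins was then counted, a choice made after these values were seen. Of 58 genes tested 48 had estimates above 0, with a median of 0.30, and 0 were called. That became 37 of 58 and a median of 0.10 without wild-type replicate 2. At an unadjusted p under 0.05, 3 of the 58 were higher, Pcdha10 and Pcdhb13 included, beside 0.36% of all genes, and 0 were lower. In the 15 libraries without wild-type replicate 2 there were 2 higher, Pcdha10 and Pcdhb13, beside 0.369%, and 0 lower. The fit of 7 gave 4 of 57 higher, beside 0.404%, and 0 lower. The 6 libraries gave 4 of 57 higher, beside 0.521%, and 1 lower, beside 0.534%. Pcdha10 and Pcdhb13 prompted the count and are in each of these numbers of higher genes. The shares are therefore no test of the set. The other 4 of the 6 higher genes chosen by the smallest p were Zc2hc1c (0.98, interval 0.29 to 1.67), Gm8923 (2.09, interval 0.62 to 3.57), AU022252 (0.52, interval 0.10 to 0.94) and Zfp229 (0.46, interval 0.08 to 0.84).

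Among the lower genes without overlap, Trib1, which encodes a pseudokinase adaptor for protein degradation, was the best measured. It stood at 10.6, 7.15 and 9.22 CPM in the ganglia labelled het and at 10.7, 20.3, 18.8 and 17.0 CPM in the wild-type ganglia, where replicate 1 all but touched the other group. The log2 difference was −0.90 (interval −1.43 to −0.36). Sct, the gene of the hormone secretin, had 0 counts in all 3 libraries labelled het and 10, 4, 4 and 5 counts in the wild-type ones, close to the floor of 3 counts. S1pr4, a sphingosine phosphate receptor of lymphocytes, was at 25.2 CPM in wild-type replicate 2 and at 0.827 to 1.13 CPM in the other wild-type libraries, against 0.291 to 0.468 CPM in the ganglia labelled het. Cyp2r1 (−2.38), Stra13 (−1.28) and Tnfaip8l1 (−1.60) completed the 6, all 3 with adjusted p of 0.993 by the same test.

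Genes near Runx1t1 travel with an inserted allele in a cross, so they were read apart. Within 10 Mb to either side on chromosome 4, 62 genes were tested and 0 called, with a median log2 difference of 0.02. At an unadjusted p under 0.05 there were 4 (6.45%), Lyn, Rps20, Plekhf2 and Cdh17, beside 4.12% of all genes. The fit of the 7 libraries gave 0 of 58, and leaving out wild-type replicate 2 gave 0 of 62, beside 0.823% of all genes. Lyn, a kinase of blood cells, stood at 126 CPM in wild-type replicate 2 and at 3.68 to 16.6 CPM in the other 6 libraries. The nearest tested genes on either side were Triqk, with a log2 difference of 0.22 (interval −0.51 to 0.96), and Otud6b, with one of 0.20 (interval −0.12 to 0.52).

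Whether the genotype acted differently with the MYCN transgene was tested as an interaction, with 2 ganglia labelled het and 3 wild-type ganglia of mice homozygous for MYCN. It called 0 of 16665 genes, with 937 (5.62%) at an unadjusted p under 0.05 by edgeR's quasi-likelihood test. DESeq2 called 31 and limma voom 6. For Runx1t1 itself the interaction was −2.16 on the log2 scale. Its unadjusted p was 0.0216 and its adjusted p 0.845 (edgeR quasi-likelihood test). In the ganglia with MYCN Runx1t1 stood at 25.3 and 49.9 CPM where labelled het and at 243, 23.4 and 111 CPM where wild-type. All of these lay above the 18.2 CPM that was the highest value without the transgene.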

How the data were processed

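RNA of 2-week-old mouse celiac ganglia was sequenced with a SMARTer Stranded Total RNA-seq v2 kit, although the labels describe polyA RNA. The authors ran STAR against mm10 and then RSEM. For 24411 genes they deposited expected counts that were not normalized, and TPM, which RSEM scales within each library. Strand settings and the annotation are not given in the sources used here, and RSEM shares out reads between near copies and overlapping genes. The column headers call the genotype Het or Hom, and Hom was taken to mean 2 wild-type alleles, since the labels of the same replicates say wild-type.

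Expected counts were rounded. With R 4.3.3 and edgeR 4.0.16, all 16 libraries in 5 groups were filtered (filterByExpr, 16665 genes kept), normalized by TMM and fitted by the quasi-likelihood model. P-values were adjusted by the Benjamini-Hochberg method and called under 0.05. The 95% intervals came from the same fit. Normalized CPM are TMM-scaled. The biological coefficient of variation was 0.487 over all libraries and 0.438 over the 7 compared. Runx1t1 was also compared by an exact permutation test on log2(CPM + 1). Positions are from GENCODE vM21 (GRCm38).

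The comparison and its gene lists (29 lists, 309 tested genes) were chosen with earlier results of these data known. Named genes are the ETO and RUNX list, the 3 members with the highest mean TPM and the 1 with the smallest p of every other list, and the 6 higher and 6 lower genes with the smallest p among those without overlap whose mean TPM was 1 or more. Amd1, Art2a-ps, Treml4, Gvin1, Stab2, Cacna1c, Cacna1d, Kcnc1, Kdm1a, Hdac3, Gata3, Meis2, Ccnb1, Aurkb, Actg2, Cnn1, Des and the genes beside Runx1t1 were named after their values were seen. Some genes that the rule names are not reported here. Alternatives were other normalizations and filters, DESeq2 1.42.0, limma 3.58.1 (voom), terms for sex, depth and replicate number, only the libraries compared and leaving out each of the 7 libraries. The fits of 6 libraries were added after seeing the data. Simulated counts served to test the scripts. The shallowest library held 10692291 counts, and the intervals give the precision.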

Additional observations from a re-analysis of the deposited data

Results flagged for a closer look

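Among the 4 wild-type ganglia, 13 of 115 named genes had 1 library far from the other 3 by Dixon's test at the 95% level. Chance gives about 1 in 20 groups for independent genes, but these were partly chosen by their values and vary together, so the count is a description and no test. Of these, 11 were in wild-type replicate 2. The highest value was there for Mycl (20.2 CPM, others 2.43 to 3.44), Ccna2 (30.1 CPM, others 5.11 to 7.05), Nap1l1 (316 CPM, others 243 to 247) and S1pr4 (25.2 CPM, others 0.827 to 1.13). The same held for the lymphocyte genes Cd79a (110 CPM, others 0.266 to 0.917), Cd3g (79.3 CPM, others 0 to 0.640) and Cd4 (134 CPM, others 0.207 to 0.952). Y-linked Ddx3y (66.9 CPM) and Eif2s3y (19.6 CPM) were highest there, the others being at 0 to 0.0800 CPM for both. It held the lowest value for the glial gene Fabp7 (67.9 CPM, others 174 to 203) and for Xist (1.82 CPM, others 411 to 659). Wild-type replicate 3 was highest for the steroidogenic gene Star (18.9 CPM, others 6.80 to 7.83) and for Cela1 (4.58 CPM, others 3.10 to 3.29).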

How the results depend on the processing

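Leaving out each of the 7 libraries compared in turn, with the MYCN ganglia and tumors kept in the fit, gave 0 called genes each time. It gave 7217 to 9375 genes bounded within 2-fold and median half-widths of 0.69 to 0.85. The Runx1t1 differences ran from 0.24 to 0.50 and the medians near Runx1t1 from −0.04 to 0.04. The distance between genotypes minus that within ran from −21.2 to 5.33 (5.33 without wild-type replicate 1 and 0.20 without wild-type replicate 4). The interaction with MYCN then called 1 gene without labelled-het replicate 1 and 0 otherwise. The MYCN ganglia and tumors were not left out 1 by 1. With all of them left out, leaving out each of the 7 libraries gave 0 called genes each time. Between 6999 and 10618 genes were then bounded within 2-fold, with median half-widths of 0.49 to 0.82. In those fits the Runx1t1 differences ran from 0.24 to 0.49 and the medians near Runx1t1 from −0.04 to 0.06. DESeq2 called 5 genes, and 31 for the interaction, where limma voom called 6. With a limit of 1.5-fold 3911 genes were bounded. A sign other than the reported one was found in 77 of 2149 alternative values, in 31 genes. Leaving out 1 library turned the sign by at least 1 SE for 9 of them, whose values ran from −1.64 to 0.077 for C1qc, −4.49 to 0.33 for Lyz2, −1.30 to 0.19 for Mcm6, −1.20 to 0.50 for Runx1 and −2.40 to 0.20 for Runx2, each highest without wild-type replicate 2. They ran from −6.30 to 9.98 for Ddx3y, −6.25 to 7.73 for Eif2s3y, −1.18 to 0.60 for Hba-a1 and −0.90 to 1.02 for Hbb-bt, each lowest without labelled-het replicate 4. It also turned for Mcm6 with a depth term (0.17) and for Runx1 with limma voom (0.061). The cause was not tested. Replicate numbers showed no pairing of single samples, with correlations of −0.07, −0.22 and −0.23 for same-numbered libraries. That measure is not the correlation of their levels, which was 0.98 for replicate 1 of both groups. It cannot exclude a difference shared by several libraries. Replicates 1 and 2 held 10692291 to 12549630 counts, and replicates 3 and 4 held 27314781 to 36337179. Replicate number and depth thus cannot be told apart. With a term for depth 0 genes were called. With a replicate block 0 genes were called, 121 had an unadjusted p under 0.05, 8878 were bounded within 2-fold, the Runx1t1 difference was 0.38 and the Runx1 difference turned to 0.033. Of the genes that the naming rule gives, none passed the threshold under any of these alternatives; the 5 that DESeq2 called are outside that rule.

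With 3 libraries against 4, and 10692291 to 36337179 counts, genes under 10 TPM were mostly not bounded within 2-fold.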
